A study of Homo sapiens with 6 samples.

Results

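Box H/ACA small nucleolar RNAs (snoRNAs) and small Cajal body RNAs (scaRNAs) were followed through 6 human prostate cancer cell lines. Members were the genes whose deposited name begins with SNORA or SCARNA and a number, with entries that share a name summed and with at least 10 counts in at least 1 library. The tables held 469 such entries under 140 names. Of these names 108 passed the minimum and 32 did not, which left 88 SNORA and 20 SCARNA members among 28294 gene symbols that passed the same minimum and 47032 symbols in all. At the edge of the rule, SNORA5 was inside with a highest count of 11, and SNORA16 and SNORA81 were outside with a highest count of 8 each. All 6 libraries had at least 10 counts for 95 members.

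The study set castration-sensitive lines beside castration-resistant counterparts named after the same parent, with 1 library of total RNA per line. LnCaP and LAPC4 are the sensitive lines grown in RPMI with 10% fetal bovine serum, and VCaP is the sensitive line grown in DMEM with the same serum. Their resistant counterparts LnCaP-abl, VCaP-CR and LAPC4-CR were all kept in RPMI with 10% serum stripped of steroids by charcoal and with B27 supplement; no line had any other treatment. State and medium changed together in each pair and cannot be told apart, and each line stands for itself alone. Within a pair there is 1 library on each side, so a change within a pair has no replicate check and no p-value.

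H/ACA RNAs fold into hairpins that pair with a target RNA and guide the enzyme dyskerin to convert a chosen uridine to pseudouridine. Most SNORA members are known as guides for ribosomal RNA in the nucleolus, whereas scaRNAs carry signals that hold them in Cajal bodies, where spliceosomal small nuclear RNAs are modified. In human cells nearly all are cut out of introns of host genes, many of which encode ribosomal proteins or translation factors. In RNAs of the H/ACA type, 4 core proteins (DKC1, NHP2, NOP10 and GAR1) bind and stabilise the RNA. Not every scaRNA member is of this type: SCARNA7 has the motifs of box C/D snoRNAs and neither H/ACA motif.

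The members that carried the main results are shown first by sequence, from GENCODE release 29 transcripts (GRCh38). Of the 108 members, 96 matched these transcripts by gene identifier and equal length and 9 more by symbol, length and chromosome. Capitals mark the letters ANANNA (the H box) nearest the middle of the RNA where they lie between 40% and 60% of its length, and the letters ACA placed 3 bases from the end. The first 4 are the most abundant members by mean level.
SNORA73B: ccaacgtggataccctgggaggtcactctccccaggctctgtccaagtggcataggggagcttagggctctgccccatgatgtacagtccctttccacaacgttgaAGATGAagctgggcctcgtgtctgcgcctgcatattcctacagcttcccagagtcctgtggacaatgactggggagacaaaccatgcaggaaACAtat
SNORA57: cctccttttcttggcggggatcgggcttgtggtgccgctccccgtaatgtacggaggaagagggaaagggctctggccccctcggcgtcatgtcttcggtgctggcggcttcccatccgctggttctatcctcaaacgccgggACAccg
SNORA48: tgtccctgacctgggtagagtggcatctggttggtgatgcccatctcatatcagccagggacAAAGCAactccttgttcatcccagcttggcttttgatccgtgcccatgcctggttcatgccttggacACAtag
SNORA24: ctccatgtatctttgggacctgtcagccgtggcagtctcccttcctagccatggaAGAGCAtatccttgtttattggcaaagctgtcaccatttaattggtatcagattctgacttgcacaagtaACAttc
The next 3 are members with lower values in the resistant library of all 3 pairs.
SNORA74: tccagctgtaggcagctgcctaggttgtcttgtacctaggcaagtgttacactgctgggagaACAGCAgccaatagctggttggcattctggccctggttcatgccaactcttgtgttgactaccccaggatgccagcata
SNORA13: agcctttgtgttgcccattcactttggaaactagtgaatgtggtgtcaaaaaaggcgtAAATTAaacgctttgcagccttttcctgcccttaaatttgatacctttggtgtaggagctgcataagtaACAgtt
SNORA65: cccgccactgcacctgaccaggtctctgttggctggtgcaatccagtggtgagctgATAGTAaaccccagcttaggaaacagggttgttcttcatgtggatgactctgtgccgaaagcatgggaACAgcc
SNORA2A and SNORA2B are shown because they are similar RNAs from the same host gene with different changes; 76.1% of 142 aligned positions were identical.
SNORA2A: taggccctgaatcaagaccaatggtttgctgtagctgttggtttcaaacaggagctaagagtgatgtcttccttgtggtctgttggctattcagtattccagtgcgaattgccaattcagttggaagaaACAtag
SNORA2B: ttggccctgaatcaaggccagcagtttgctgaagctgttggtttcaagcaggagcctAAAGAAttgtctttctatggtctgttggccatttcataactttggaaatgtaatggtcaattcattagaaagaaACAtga
SCARNA1 has both H/ACA motifs, whereas in SCARNA10, a composite scaRNA, of which bases 1 to 60 are shown, capitals mark TGATGA (the C box) within the first 25 bases.
SCARNA1: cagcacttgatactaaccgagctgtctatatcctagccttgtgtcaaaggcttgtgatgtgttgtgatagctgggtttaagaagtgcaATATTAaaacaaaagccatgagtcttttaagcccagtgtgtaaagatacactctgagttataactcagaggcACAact
SCARNA10: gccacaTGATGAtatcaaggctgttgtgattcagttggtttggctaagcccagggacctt

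The motifs were set beside those of box C/D snoRNAs, the other large snoRNA family. ACA stood 3 bases from the end in 63 of 86 matched SNORA members (73.3%) and 9 of 19 matched SCARNA members (47.4%), against 4 of 288 SNORD transcripts of the same release (1.39%). ANANNA stood near the middle in 71 of the 86 SNORA members (82.6%) and in 28.5% of SNORD transcripts. TGATGA lay within the first 25 bases in 5 of 19 SCARNA members, 0 of 86 SNORA members and 193 of 288 SNORD transcripts. TGAG, the letters of the CAB box that holds scaRNAs in Cajal bodies, was found in 12 of 19 SCARNA and 36 of 86 SNORA members, and in 87.5% of SNORD transcripts. Searches covered the RNA strand only. These short letter runs can occur by chance, and a match is a description, not a functional site.

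Library totals ran from 8661337 counts in LnCaP to 22433655 in LAPC4-CR, and each resistant library was deeper than that of its parent. Levels are given as scaled FPKM, the deposited FPKM (fragments scaled to gene length and library total) divided by a factor per library. The luminal keratin genes KRT8 and KRT18 were at 13.2 scaled FPKM or more in all 6 libraries. KLK3, the gene of prostate-specific antigen, was at 0.676 in LnCaP-abl and 2.09 in LAPC4-CR and at 18.9 or more in the other libraries. ERG, which is fused in VCaP, reached 16.5 in VCaP, 5.38 in VCaP-CR and at most 0.193 elsewhere. PTPRC, COL1A1, COL3A1 and DCN, markers of blood cells and fibroblasts, were between 0.126 and 0.736 in all libraries.

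The H/ACA and Cajal body RNAs together took a smaller share of all counts in the resistant library of each pair. They took 1.55% in LnCaP and 0.880% in LnCaP-abl, a share 1.77-fold lower. For VCaP the share was 3.30%, and for VCaP-CR 2.50%, 1.32-fold lower. In LAPC4 they took 2.05% and in LAPC4-CR 1.04%, 1.97-fold lower. The VCaP lines had the highest shares whatever the state, and the lowest sensitive library (LnCaP) was below the highest resistant one (VCaP-CR), so the states overlapped. The Wilson 95% interval of the smallest share, in LnCaP-abl, ran from 0.875% to 0.886%, and such intervals cover counting error only. In bulk RNA, fewer cells that make an RNA and less RNA per cell cannot be told apart.

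The share of the SCARNA members alone did not follow this pattern in all pairs. It was 0.128% in LnCaP against 0.118% in LnCaP-abl, 0.201% in VCaP against 0.220% in VCaP-CR, and 0.189% in LAPC4 against 0.111% in LAPC4-CR. Thus the scaRNA share was higher in VCaP-CR than in VCaP, and only the LAPC4 pair showed a difference of the size seen for the family, 1.71-fold. Whether scaRNAs and SNORA members differed in response was not tested.

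Other short noncoding RNAs are given beside these shares because they come from the same libraries. The share of 146 box C/D snoRNAs was 1.89% in LnCaP against 0.876% in LnCaP-abl, 2.21% in VCaP against 2.05% in VCaP-CR, and 2.06% in LAPC4 against 0.948% in LAPC4-CR. The share of 75 RNU genes (spliceosomal RNAs and their copies) was 2.18-fold lower in LnCaP-abl, 1.28-fold lower in VCaP-CR and 2.27-fold lower in LAPC4-CR. RN7SK, a longer nuclear RNA, took 2.28% in LnCaP against 2.79% in LnCaP-abl, 5.12% in VCaP against 3.95% in VCaP-CR, and 2.37% in LAPC4 against 2.11% in LAPC4-CR. RMRP, the RNA of a ribonuclease that cuts the ribosomal RNA precursor, had log2 ratios of its share of -0.84, -0.51 and -0.11 in the order LnCaP, VCaP and LAPC4. The share of 63 MIR genes had log2 ratios of -0.03, 0.12 and 0.02. Protein-coding genes took 67.8% in LnCaP against 77.4% in LnCaP-abl, 62.8% in VCaP against 68.0% in VCaP-CR, and 68.3% in LAPC4 against 79.5% in LAPC4-CR. Their share was higher in the resistant library of each pair, so the remaining genes as a whole took less there. The 2 snoRNA families, the RNU genes and RMRP were thus lower in the resistant library of every pair, while RN7SK was higher in LnCaP-abl and the MIR genes differed by at most 0.12. A common part of RNA size or library preparation in these differences was not tested.

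**Figure D1:**
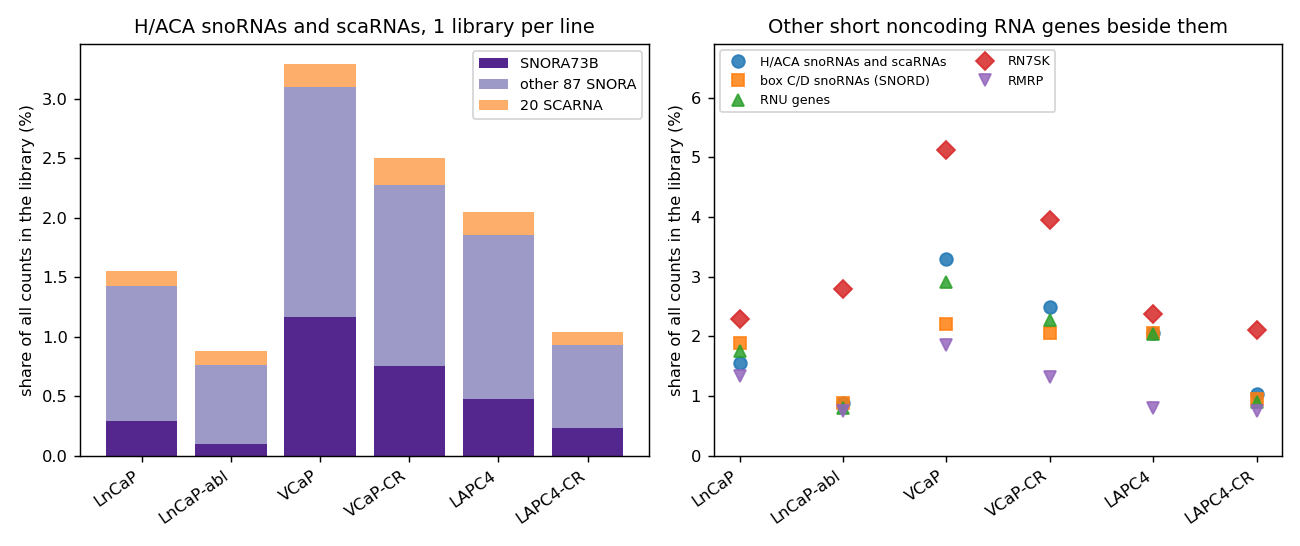
Shares of all counts (%, y axis) in each of the 6 lines (x axis), with 1 library per line. Left, stacked bars of SNORA73B, the other 87 SNORA and the 20 SCARNA members, whose total is lower in the resistant line of each pair although the SCARNA part is higher in VCaP-CR than in VCaP; right, points for this family beside box C/D snoRNAs, RNU genes, RN7SK and RMRP, of which RN7SK is higher in LnCaP-abl than in LnCaP.

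SNORA73B, known as U17, takes part in cleavage of the ribosomal RNA precursor and is the most abundant member. It lies in the SNHG3 locus (chromosome 1, 28707658 to 28707861, hg18 coordinates as in all positions given here). Its scaled FPKM came to 13063 in LnCaP against 4742 in LnCaP-abl, 65484 in VCaP against 40656 in VCaP-CR, and 21542 in LAPC4 against 10599 in LAPC4-CR. The resistant library was the lower one in each pair, but VCaP-CR stood above LnCaP and LAPC4, so the groups overlapped. SNORA73B was the highest member in all 6 libraries and made up 35.3% of the family's counts in VCaP and 11.5% in LnCaP-abl. Without it, the family's share was still 1.62-fold, 1.22-fold and 1.95-fold lower in LnCaP-abl, VCaP-CR and LAPC4-CR.

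Levels within the family were uneven. The 10 members with the highest mean level held 57.7% of the summed mean scaled FPKM, 28 members had a mean of at least 1000 and the median member had 395. SNORA57, from the METTL12 locus, where it overlaps an exon in GENCODE 29 (chromosome 11, 62189470 to 62189618), followed it in mean level. It measured 8626 scaled FPKM in LnCaP against 4829 in LnCaP-abl, 21932 in VCaP against 12925 in VCaP-CR, and 10291 in LAPC4 against 6677 in LAPC4-CR. It was lower in each resistant line by a similar amount, by 0.84, 0.76 and 0.62 on the log2 scale.

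SNORA48 followed in level and did not share this direction. It lies in EIF4A1, a translation initiation helicase gene (chromosome 17, 7418755 to 7418889), where in GENCODE 29 it overlaps exons of retained-intron transcripts only. Scaled FPKM values were 5739 in LnCaP against 6096 in LnCaP-abl, 7960 in VCaP against 8494 in VCaP-CR, and 9788 in LAPC4 against 5943 in LAPC4-CR. Only the LAPC4 pair showed a lower resistant library, and SNORA48 varied 1.71-fold between its highest and lowest library, against a median of 4.61-fold over members with a count in every library. SNORA24, from the locus of the noncoding gene SNHG8 (chromosome 4, 119419793 to 119419923), had its highest level in LnCaP and its lowest in LnCaP-abl. Its scaled FPKM came to 7216 in LnCaP against 1988 in LnCaP-abl, 5495 in VCaP against 4728 in VCaP-CR, and 5212 in LAPC4 against 3826 in LAPC4-CR.

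The next 6 by mean level were SNORA9, SNORA68, SNORA71D, SNORA33, SNORA21 and SNORA26, with levels from 662 scaled FPKM (SNORA26 in LnCaP-abl) to 11555 (SNORA9 in VCaP). All 6 were lower in the resistant library of each pair, by amounts between 0.03 (SNORA33 in the VCaP pair) and 1.72 (SNORA26 in the LnCaP pair) on the log2 scale. SNORA33 and SNORA21 come from the ribosomal protein genes RPS12 and RPL23.

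The highest library was VCaP for 62 members, LAPC4 for 23, VCaP-CR for 15, LnCaP for 6 and LnCaP-abl for 2. LAPC4-CR was the highest library for 0 members and the lowest for 42, and LnCaP-abl was the lowest for 44. The order of members by level was similar in all libraries. Spearman's rho over the 108 members lay between 0.92 and 0.98 for the 15 pairs of libraries, and the highest was that of VCaP with VCaP-CR. Members share each library's depth, so these values are a description.

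**Figure D2:**
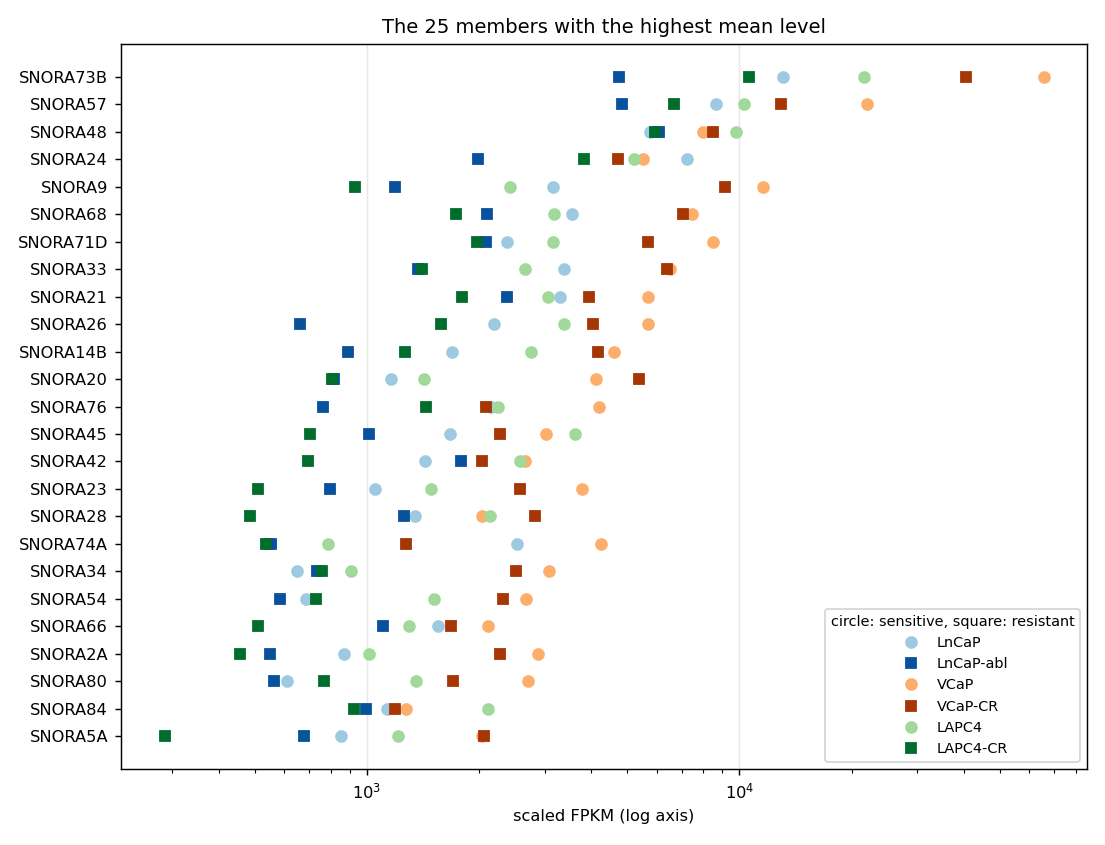
Scaled FPKM (x axis, log scale) of the 25 members with the highest mean level (y axis), with 1 point per library, circles for sensitive and squares for resistant lines. SNORA73B in VCaP is highest at 65484, and the squares of LnCaP-abl and LAPC4-CR are on the left for most members.

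The change in each resistant-parent pair was then taken member by member as the difference in log2(scaled FPKM + 1), resistant minus sensitive, a scale that understates changes of low genes. The median member change in the order LnCaP, VCaP and LAPC4 was -0.51, -0.30 and -0.92, beside medians of -0.07, -0.02 and -0.01 over all 28294 genes tested. Of the 108 members 84, 82 and 100 were below 0, against backgrounds of 56.9%, 52.3% and 51.7% of all genes tested. In the LnCaP pair 28 members (25.9%) were at least 2-fold lower, where the background over all genes tested was 5.23%. In the VCaP pair 8 members (7.41%) were at least 2-fold lower against a background of 1.48%, and in the LAPC4 pair 49 (45.4%) against 5.05%. At least 2-fold higher were 3, 3 and 0 members against backgrounds of 4.76%, 1.71% and 4.03%.

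Members in the 2 name classes were also described separately. The median of the 88 SNORA members was -0.60, -0.35 and -0.97 in the pairs of LnCaP, VCaP and LAPC4. The median of the 20 SCARNA members was -0.33, -0.03 and -0.80. Box C/D snoRNAs had medians of -0.92, 0.02 and -1.34, so their median was the lower one in the LnCaP and LAPC4 pairs and not in the VCaP pair. In the same order, 43.8%, 6.16% and 68.5% of 146 box C/D snoRNAs were at least 2-fold lower.

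Counting error was small beside many of these differences. Exact 95% counting intervals of the change lay wholly below 0 for 65, 64 and 90 members in the same order, against backgrounds of 22%, 17% and 23.2%. They lay wholly above 0 for 14, 14 and 0 members, against 22.3%, 16% and 23.7%. These shares also depend on how many counts a gene has. Such an interval says nothing of the spread between cultures.

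Across pairs, 61 of 108 members (56.5%) were lower in the resistant library of all 3, against a background of 18.9%. Only SCARNA17 was higher in all 3 (background 13.2%). SNORA74 and SNORA13 were at least 2-fold lower in all 3 pairs (background 0.102%), and 0 members were at least 2-fold higher in all 3 (background 0.0389%). Box C/D snoRNAs were lower in all 3 pairs in 57 of 146. A lower value in LnCaP-abl and LAPC4-CR with a higher one in VCaP-CR was found for 18 members (16.7%, background 13.1%) and for 59 of 146 box C/D snoRNAs.

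**Figure D3:**
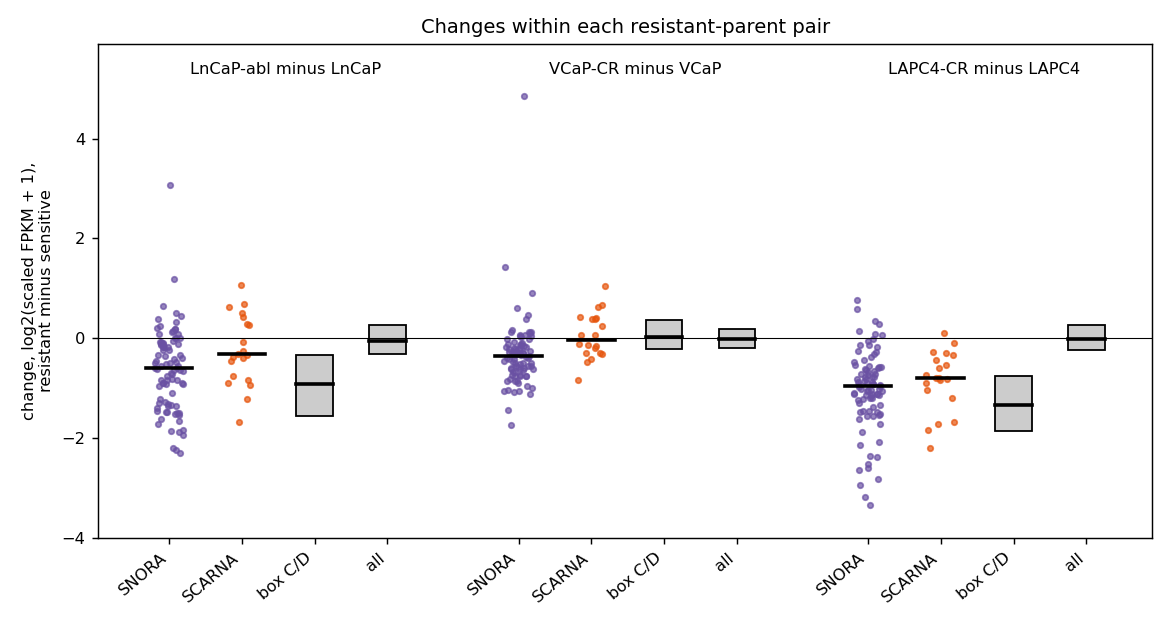
Change in log2(scaled FPKM + 1), resistant minus sensitive (y axis), in the 3 pairs (x axis). Points are single SNORA or SCARNA members with bars at their median, and boxes give quartiles and median of box C/D snoRNAs and of all genes tested; the SNORA medians lie at -0.60, -0.35 and -0.97, below the medians of all genes.

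Over the 3 pairs together, edgeR's quasi-likelihood test with the parental line as a block called 0 members in either direction at the 5% adjusted threshold, with a background of 0% for both. The smallest adjusted p of a member was 0.526 and the smallest of any gene 0.210. At an unadjusted p under 0.05, 1 member was higher (SNORA35) and 31 were lower (28.7%), against backgrounds of 4.62% and 4.04%. SNORA35 passed the count minimum only through VCaP-CR. The box C/D snoRNAs were alike, with 44 of 146 (30.1%) lower and 4 higher, so this excess was not particular to the members. Without the LAPC4 pair, 17 members were lower at that unadjusted p, and 33 and 29 without the LnCaP or the VCaP pair. The share of all genes at that threshold was not taken for these fits, so these counts have no background. The edgeR log2 change was below 0 for 99 of 108 members (background 50%), with a median of -0.54 beside 0.00 over all genes tested.

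DESeq2 on the same counts called 4 members lower, SNORA74, SNORA13, SNORA65 and SNORA74A, and 0 higher, where the background was 0.272% lower and 0.417% higher. Without the filter on low counts edgeR called 3 of these lower (all but SNORA13; background 0.183%) and 0 members higher (background 0.254%). Among 146 box C/D snoRNAs, DESeq2 called 7 lower and edgeR without the filter 8, with 0 higher by either. Over all alternatives the adjusted p of these 4 members lay between 0.00703 and 0.9999, the latter in the unpaired edgeR fit. DESeq2 gave no adjusted p to some low-count members, SNORA35 among them, so it could not call them in either direction. Its background counts genes without an adjusted p as not called. The p-values of both tools measure only the spread between these 3 pairs of lines. In simulated counts for these 28294 genes, with an equal dispersion for all genes, edgeR recovered 80% of 200 genes changed 4-fold. The changed genes were drawn only from those with higher expected counts, and no differences between parental lines were simulated. Recovery of low-count members was thus not measured.

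SNORA74 and SNORA74A, named after the U19 snoRNA, are listed inside the MATR3 locus on chromosome 5 (SNORA74 at 138639768 to 138639908), outside MATR3 in GENCODE 29. SNORA74 was at 892 scaled FPKM in LnCaP against 188 in LnCaP-abl, 1294 in VCaP against 475 in VCaP-CR, and 513 in LAPC4 against 233 in LAPC4-CR. All 3 resistant lines were below all 3 sensitive lines, and edgeR gave a log2 change of -1.54 (SE 0.31, adjusted p = 0.526), where DESeq2's adjusted p was 0.00703. SNORA74A was at 2536 scaled FPKM in LnCaP against 553 in LnCaP-abl, 4260 in VCaP against 1271 in VCaP-CR, and 788 in LAPC4 against 537 in LAPC4-CR. Its groups overlapped, since VCaP-CR was above LAPC4, and its edgeR log2 change was -1.45 (SE 0.36, adjusted p = 0.526; DESeq2 0.0381). MATR3 itself, a nuclear matrix protein gene, changed by -0.11, 0.02 and 0.53 in the 3 pairs.

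SNORA13 lies in the noncoding transcript NCRNA00219 (chromosome 5, 111525081 to 111525213). Its values were 569 scaled FPKM in LnCaP against 203 in LnCaP-abl, 488 in VCaP against 235 in VCaP-CR, and 474 in LAPC4 against 160 in LAPC4-CR. The 3 sensitive values were close together and above the 3 resistant ones, with changes of -1.48, -1.05 and -1.57. The edgeR log2 change was -1.31 (SE 0.28, adjusted p = 0.526; DESeq2 0.0213).

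SNORA65 lies in an intron of RPL12, a gene of the large ribosomal subunit (chromosome 9, 129250601 to 129250730). The 6 libraries had 1082 scaled FPKM in LnCaP against 422 in LnCaP-abl, 1829 in VCaP against 1004 in VCaP-CR, and 2290 in LAPC4 against 250 in LAPC4-CR. The LAPC4 pair stood out with a change of -3.19 (95% counting interval -3.31 to -3.08) beside -1.36 and -0.86, while RPL12 changed by -0.27, -0.10 and -0.41. The edgeR log2 change of SNORA65 was -1.72 (SE 0.47, adjusted p = 0.526; DESeq2 0.0335), and -1.05 without the LAPC4 pair.

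SNORA51 and SNORA78 completed the 5 members whose smallest difference over the 3 pairs was largest in the lower direction. SNORA51 lies in the locus of NOP56, a box C/D core protein gene, and changed by -1.51, -1.08 and -0.98. SNORA78, in the SNHG9 locus, changed by -0.96, -1.12 and -0.95. NOP56 itself changed by -0.71, -0.48 and -0.06, and SNHG9 by 0.02, -0.91 and 0.29.

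Other members were chosen for their difference in 1 pair. SNORA1, on chromosome 8, had the largest decrease of the LnCaP pair, with 267 scaled FPKM in the parent and 53.6 in LnCaP-abl, a change of -2.30 (95% counting interval -2.69 to -1.96). In the pairs of VCaP and LAPC4 it changed by -0.22 and -1.12. SNORA2B had the largest decrease of the LAPC4 pair, -3.34 (95% counting interval -3.66 to -3.10). Its scaled FPKM came to 141 in LnCaP against 134 in LnCaP-abl, 159 in VCaP against 140 in VCaP-CR, and 398 in LAPC4 against 38.4 in LAPC4-CR. LAPC4 was thus the highest and LAPC4-CR the lowest of the 6, with the others close together.

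SNORA36B and SNORA69, both low members, had their excess in LAPC4. SNORA36B, in the RAB3GAP2 locus, was at 95.7 scaled FPKM in LAPC4 and between 4.56 and 12.7 in the other 5 libraries. SNORA69, in RPL39, was at 55.4 in LAPC4 and between 2.26 and 13.7 elsewhere. In VCaP, SNORA8 and SNORA62 stood highest, at 86.1 and 98.9 scaled FPKM, followed by VCaP-CR at 43.9 and 52.5. In the other 4 libraries SNORA8 was between 3.43 and 19.1, and SNORA62 between 9.27 and 21.

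Higher values in a resistant line were fewer. SNORA35 had 59 counts in VCaP-CR, 2 in LAPC4, 3 in LAPC4-CR and 0 in the other 3 libraries. With a floor of 3 counts in VCaP and the 59 counts taken as exact, its share of counts was 12.6-fold higher in VCaP-CR. The edgeR adjusted p was 0.536. SNORA35 passed the count minimum only through VCaP-CR, so its higher value there was tied to the choice of members. SNORA5 had 11 counts in LnCaP-abl and 0 in LnCaP. It likewise passed the minimum only through LnCaP-abl, so no difference is read from it. SNORA5 fell outside the naming rule and is named after its values were seen. SNORA46, in an intron of CNOT1 (a deadenylase scaffold gene), had 139 scaled FPKM in VCaP and 377 in its resistant counterpart. Its changes, in the order LnCaP, VCaP and LAPC4, were 0.17, 1.43 and -0.57, so only the VCaP pair showed it 2-fold or more higher.

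SNORA11 and SCARNA20 were higher in LnCaP-abl and lower in LAPC4-CR. SNORA11, in an intron of MAGED2 on chromosome X, was at 183 scaled FPKM in LnCaP against 420 in LnCaP-abl, 535 in VCaP against 555 in VCaP-CR, and 757 in LAPC4 against 347 in LAPC4-CR. MAGED2 changed by 1.57, -0.16 and -0.08 where SNORA11 changed by 1.19, 0.05 and -1.12. The SNORA11 values are sums of several entries, and the position in MAGED2 is that of the entry with the most counts. Its edgeR log2 change was 0.09 for the sum and 0.41 for that entry alone. SCARNA20, in USP32, was at 197 in LnCaP against 411 in LnCaP-abl, 223 in VCaP against 160 in VCaP-CR, and 539 in LAPC4 against 261 in LAPC4-CR. SNORA11B, which is 84.7% identical to SNORA11 over aligned positions, changed by 0.09, -0.48 and 0.77, and SNORA70B by -0.13, -1.05 and 0.28, with at most 158 counts per library for either.

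**Figure D4:**
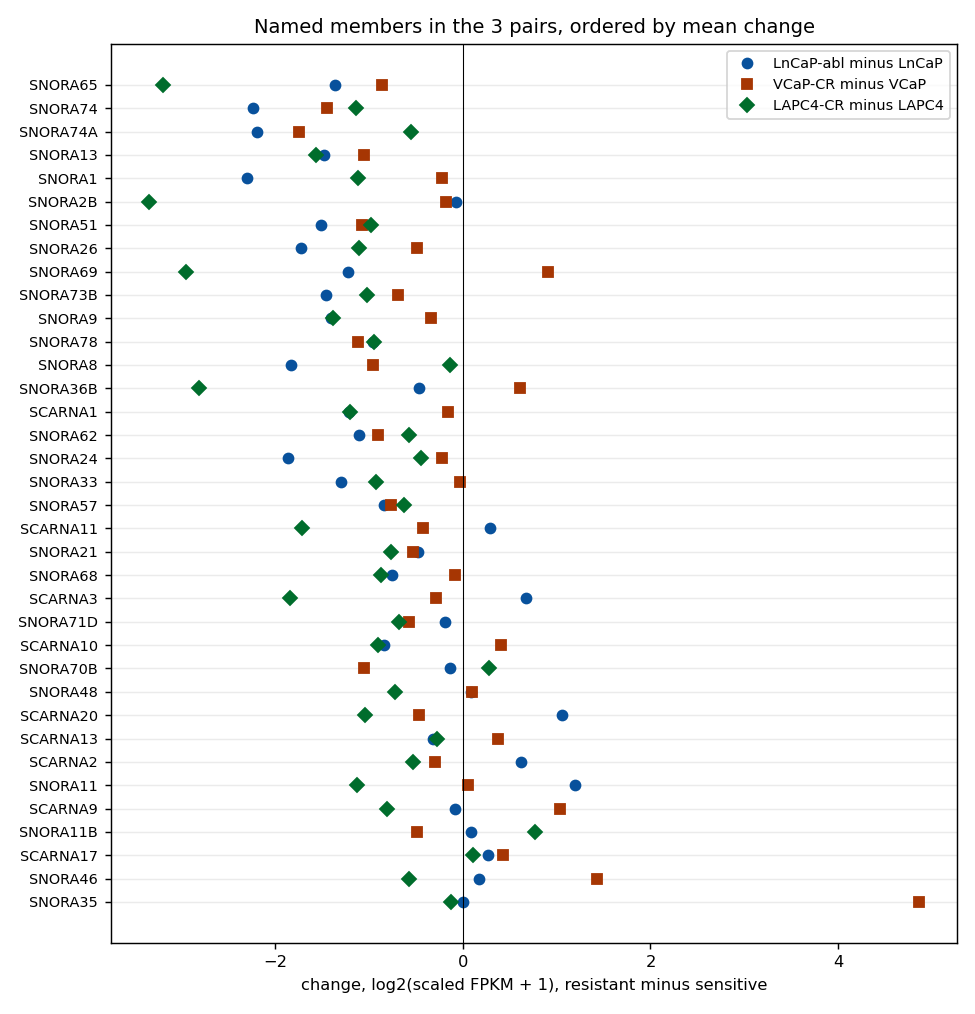
Change in log2(scaled FPKM + 1), resistant minus sensitive (x axis), of the 36 members chosen by the naming rule (y axis, ordered by mean change), with 1 point per pair. SNORA74 and SNORA13 have all 3 points at or below -1.05, and SNORA35 has a single point at 4.86 in the VCaP pair that rests on 0 counts in VCaP.

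The scaRNAs were led by SCARNA10 (U85), known to guide both methylation and pseudouridylation of U5 small nuclear RNA. SCARNA10, in an intron of NCAPD2 (chromosome 12, 6489649 to 6489978), was at 636 scaled FPKM in LnCaP against 354 in LnCaP-abl, 1426 in VCaP against 1886 in VCaP-CR, and 578 in LAPC4 against 309 in LAPC4-CR. LnCaP-abl and LAPC4-CR thus had less of it than their parents, and VCaP-CR more. SCARNA2, which guides methylation of U2 small nuclear RNA and has no host in the tables, was at 603 in LnCaP against 925 in LnCaP-abl, 1043 in VCaP against 852 in VCaP-CR, and 676 in LAPC4 against 466 in LAPC4-CR. Its direction was opposite to that of SCARNA10 in the LnCaP and VCaP pairs.

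SCARNA1, an H/ACA scaRNA in PPP1R8 (chromosome 1, 28033499 to 28033664), was at 607 scaled FPKM in LnCaP against 261 in LnCaP-abl, 1418 in VCaP against 1271 in VCaP-CR, and 694 in LAPC4 against 301 in LAPC4-CR. Its edgeR log2 change was -0.80 (SE 0.31, adjusted p = 0.555). SCARNA13 in SNHG10 changed by -0.31, 0.38 and -0.28. SCARNA3 and SCARNA11 were higher in LnCaP-abl (0.68 and 0.29) and lower in LAPC4-CR (-1.84 and -1.71). SCARNA9 changed by -0.08, 1.04 and -0.80.

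SCARNA17, on chromosome 18, was the single member with higher values in all 3 resistant lines. Its counts were 28 in LnCaP against 41 in LnCaP-abl, 50 in VCaP against 110 in VCaP-CR, and 60 in LAPC4 against 116 in LAPC4-CR. The changes of 0.26, 0.43 and 0.11 each had a 95% counting interval that spanned 0, and the edgeR adjusted p was 0.801. The 5 scaRNAs with TGATGA near their start had median changes of -0.38, 0.24 and -0.60. The 9 scaRNAs with ACA 3 bases from the end had medians of -0.40, -0.16 and -0.83.

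Host genes were compared next, since most of these RNAs are spliced out with them. By the deposited positions, 97 members lay within the locus of another gene that is no small RNA, and for 78 of these the host was on the same strand by its identifier and had at least 10 counts in a library. These 78 members lay in 70 hosts, 62 of them protein-coding. In GENCODE 29, 66 of the 78 were intronic in all transcripts of the host, 6 overlapped exons of retained-intron transcripts only, 4 overlapped another exon and 2 lay outside the host.

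The hosts did not show the same shift. Their median change was -0.14, 0.02 and 0.15 in the same order, and 61, 56 and 75 of the 78 members were below their host. Member and host changes had a Pearson's r of 0.54, 0.26 and 0.36 and a Spearman's rho of 0.55, 0.16 and 0.41 over the 78 members. These are descriptions across genes that share the libraries, and some members share a host.

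SNORA73B and its host SNHG3 had similar changes. SNHG3 changed by -1.61, -1.07 and -0.99 and SNORA73B by -1.46, -0.69 and -1.02. SNORA75 and its host NCL, which encodes nucleolin, did not: SNORA75 changed by -1.61, 0.17 and -1.52, and NCL by -0.77, 0.86 and 2.05. SNORA45, in RPL27A, changed by -0.72, -0.40 and -2.37 where RPL27A changed by -0.78, -0.03 and -0.41. SNORA75 and SNORA45 fell outside the naming rule and are named after their values were seen.

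Members of the same host need not change alike. C12orf41 holds SNORA2A, SNORA2B and SNORA34 and changed by 0.31, -0.28 and 0.00. SNORA2A changed by -0.66, -0.33 and -1.15, SNORA2B by -0.07, -0.18 and -3.34, and SNORA34 by 0.18, -0.30 and -0.26. How reads matching both SNORA2A and SNORA2B were counted is not given in the sources used here. CNOT1, the host of SNORA46 and SNORA50, changed by -0.11, 1.22 and 1.32, and SNORA50 by -1.28, -0.41 and -0.78.

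By class of host, the 7 members in ribosomal protein genes had median changes of -0.75, -0.32 and -1.34 (their hosts -0.27, -0.09 and -0.41). The 61 members in other protein-coding genes had medians of -0.40, -0.30 and -0.95 (their hosts -0.03, 0.15 and 0.32). For the 10 in genes of other classes they were -0.38, -0.57 and -1.06 (their hosts -0.19, -0.25 and -0.46). In the LAPC4 pair all 7 members in ribosomal protein genes were below 0, from -3.19 for SNORA65 to -0.77 for SNORA21. So were 57 of the 61 in other protein-coding genes and all 10 in genes of other classes. Of all 108 members 100 were below 0 in that pair, so this was not particular to ribosomal protein genes.

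**Figure D5:**
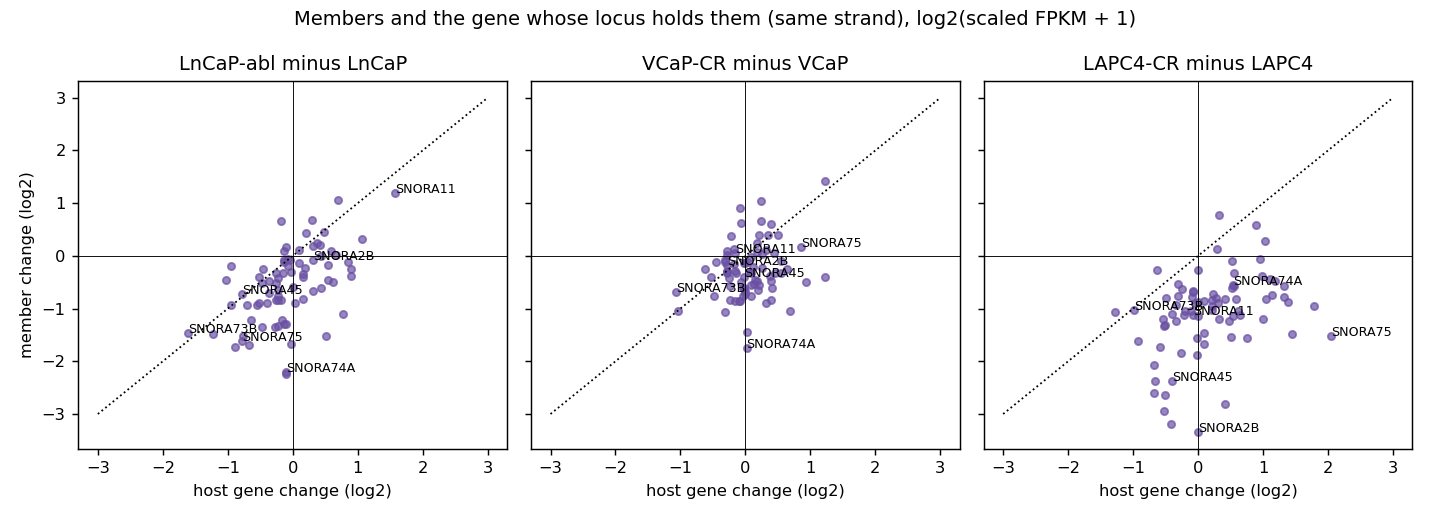
Member change (y axis) against host gene change (x axis), both in log2(scaled FPKM + 1), for 78 members with a host on the same strand, 1 panel per pair; the dotted line marks equal change. Of the 78 members, 61, 56 and 75 lie below the line in the LnCaP, VCaP and LAPC4 panels.

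Genes known as snoRNA hosts were a list of 10, noncoding except for the protein-coding TAF1D. By edgeR 0 of 10 were called in either direction, and 4 (SNHG1, SNHG3, SNHG7 and TAF1D) were lower at an unadjusted p under 0.05, against the background of 4.04%. All 10 were below 0 in the LnCaP pair, with a median of -1.28, and 8 of 10 were below 0 in each of the VCaP and LAPC4 pairs, with medians of -0.26 and -0.43. SNHG1, the host of several box C/D snoRNAs, was at 140 scaled FPKM in LnCaP against 53.8 in LnCaP-abl, 140 in VCaP against 126 in VCaP-CR, and 177 in LAPC4 against 78.1 in LAPC4-CR.

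The proteins of the pathway showed no common direction. Of the 4 core proteins, 0 were called by edgeR at the adjusted or at the unadjusted threshold. DKC1, the pseudouridine synthase, was at 20.9 scaled FPKM in LnCaP against 15.0 in LnCaP-abl, 22.9 in VCaP against 27.6 in VCaP-CR, and 8.54 in LAPC4 against 23.9 in LAPC4-CR. It was thus higher in LAPC4-CR, where the members were lowest relative to the parent, by 1.39 on the log2 scale. NHP2, a core RNA-binding protein, changed by -0.07, -1.54 and -0.29, GAR1 by -0.31, 0.00 and 0.73 and NOP10 by -0.06, 0.05 and -0.35. SNORA36A, which lies in DKC1, was between 7.58 and 14.7 scaled FPKM and changed by -0.25, 0.04 and -0.87; it fell outside the naming rule and is named after its values were seen.

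Of 8 assembly and maturation factors 0 were called, and 6, 5 and 2 were below 0 in the LnCaP, VCaP and LAPC4 pairs. RUVBL1 (-0.86, -0.25 and -0.68) and RUVBL2 (-0.08, -0.64 and -0.18) were lower in all 3. PAPD5, which adds short tails to snoRNA ends before trimming, was higher at an unadjusted p under 0.05. Its changes were 0.86, 0.42 and 0.67 (edgeR adjusted p = 0.526). Of the 6 Cajal body genes 0 passed either threshold. COIL, which encodes coilin, the scaffold of Cajal bodies, changed by 0.14, 0.22 and 0.59. WRAP53, which binds the CAB box of scaRNAs, changed by 0.03, -0.37 and -0.32.

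TERC, the telomerase RNA, also carries an H/ACA domain and is not a member by name. It was at 123 scaled FPKM in LnCaP against 146 in LnCaP-abl, 126 in VCaP against 157 in VCaP-CR, and 209 in LAPC4 against 63.2 in LAPC4-CR. LAPC4 was the highest and LAPC4-CR the lowest of the 6 libraries, and the edgeR adjusted p was 0.870.

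Base composition and length were set beside the changes as features that the choice of members had not used. Over the 105 members with a sequence, Spearman's rho between GC content and change was 0.33 for the LnCaP lines, -0.28 for the VCaP lines and 0.09 for the LAPC4 lines. Between length and change rho was 0.19, 0.01 and 0.10 over 108 members, whose lengths ran from 82 to 420 bases. The sign for GC differed between pairs.

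Copies limit these values. Of the 108 members, 56 are sums of several entries with 1 name, up to 29 entries, and 52 are single entries. The median change was -0.25, -0.29 and -1.04 for single entries and -0.79, -0.35 and -0.83 for summed ones. SNORA59A and SNORA59B have the same sequence of 152 bases in GENCODE 29, so reads cannot assign counts to one or the other. Members with near-identical copies, such as SNORA14A and SNORA14B (91.1% identical over aligned positions), are uncertain where counting could split them. Reads of a host's unspliced RNA can add to a member on the same strand, and whether counting used strand, which bears on hosts of the opposite strand, is not given.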

How the data were processed

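The deposited tables give counts and FPKM per Ensembl gene for 6 libraries, with names, loci and classes per the file headers. Per the labels' protocols, RNA was purified on RNeasy columns and sequenced with the SOLiD Total RNA-Seq kit; retention of RNAs of this size was not tested. HTSeq and hg18 are named in the submitters' processing notes. The deposited FPKM was rebuilt from the authors' counts and lengths within 1% for genes of at least 10 counts. Lengths were taken from the other tables for LAPC4-CR. Entries of the same symbol were summed.

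FPKM was divided by a factor per library (0.871 to 1.08), taken as the median, over 12927 genes that reached 1 FPKM everywhere, of each gene's ratio to its geometric mean. Deposited counts of 28294 genes with at least 10 counts in a library were tested with edgeR 4.0.16 (quasi-likelihood, TMM, line as a block, R 4.3.3) and Benjamini-Hochberg adjustment at 5%; DESeq2 1.42.0 was an alternative. On simulated counts without line differences, edgeR recovered 160 of 200 changed genes, drawn from higher-count genes, with 2 false calls, and 0 calls without change. Groups came from the labels, and pairing from the line names: deviations of each parent and its resistant line correlated at 0.44, 0.69 and 0.55.

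The members and lists were chosen with earlier results of these data known. Named were the 10 members with the highest mean level and the 6 highest scaRNAs; per pair the 3 largest rises and falls with at least 50 counts in both libraries together; up to 5 with the largest smallest change in 1 direction in all pairs; up to 10 called by edgeR; the 5 with the largest excess in 1 library; their hosts; and the list genes. PECAM1 was not analysed here.

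Some items are not reported here.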

Additional observations from a re-analysis of the deposited data

Results flagged for a closer look

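SNORA11, a sum of several entries, was higher in LnCaP-abl than in LnCaP (1.19 on the log2 scale). It was lower in LAPC4-CR than in LAPC4 (-1.12). The changes differed by 2.32, with opposite directions in pairs of 1 library per side, and the difference was not tested. SCARNA20 likewise changed by 1.06 in the LnCaP pair and -1.04 in the LAPC4 pair, a difference of 2.10, also not tested.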

How the results depend on the processing

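The median member change in each pair kept its direction under all 15 alternative values, with other pseudocounts (0.25 and 5), a minimum of 50 counts, the deposited FPKM as given, or the top entry per name. So did the 9 alternative values of the summed share. Of 30 alternative counts of members changed at least 2-fold, 28 stayed within 1.5 times: with the deposited FPKM as given 5 members were lower in the VCaP pair in place of 8, and with libraries thinned to 8661337 counts 1 was higher in the LAPC4 pair in place of 0. Of 18 alternative counts of edgeR calls among members 16 stayed at 0; DESeq2 called 4 lower and edgeR with no filter on low counts 3 lower (SNORA74, SNORA65 and SNORA74A, background 0.183%). Without replicate 1, 2 or 3 (the LnCaP, VCaP or LAPC4 pair) 0 members were called in either direction.

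Without the replicate block, the unpaired fit called 0 members higher and 0 lower, with 6 lower at an unadjusted p under 0.05. The share of all genes at that unadjusted threshold was not taken for this fit. The log2 change of SCARNA10 was then 0.0115, of SCARNA13 0.13 and of SNORA11 -0.12, each of the other sign than with the pairing.

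Of 317 alternative edgeR log2 changes of named members 23 had the other sign, mostly members whose changes differed between pairs. With DESeq2 SCARNA13 was at 0.0115 and SCARNA2 at 0.00889, with its size factors in edgeR at 0.0114 and 0.00892, and with no filter at 0.0528 and 0.0503. Leaving out 1 pair gave ranges of -0.23 to 0.0887 for SCARNA13, -0.40 to 0.22 for SCARNA2, -0.74 to 0.35 for SCARNA20, -1.05 to 0.25 for SCARNA3, -0.39 to 0.55 for SCARNA9, -0.52 to 0.68 for SNORA11, -0.13 to 0.49 for SNORA11B, -1.85 to 0.11 for SNORA36B, -0.14 to 0.86 for SNORA46, -0.29 to 0.15 for SNORA48 and -0.67 to 0.16 for SNORA70B. The cause was not tested. Depth limited members such as SNORA5, SNORA35 and SNORA69, with fewer than 100 counts in every library.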
